A study of Mus musculus with 4 samples.

Results

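The genes described here encode the proteins of the cytosolic ribosome. They were taken by symbol: Rpl or Rps followed by a digit, together with Rplp0, Rplp1, Rplp2 and Rpsa, without the S6 kinase genes (Rps6k) and without symbols ending in -ps and digits. A gene also needed 10 or more UMIs (unique molecular identifiers, each counting 1 captured transcript) summed over barcodes of at least 6500 UMIs. These criteria gave 84 of the 32285 genes in the files, and all 84 passed the filter on low counts of the main test. Rpl3l with 6 UMIs lay just under the minimum and Rpl10l had 0 UMIs, while Rpl39l with 398 UMIs was the member closest above it. All but 1 of the symbols name ribosomal subunits or relatives of them: Rps19bp1 encodes a protein that binds Rps19 and is not itself a ribosomal subunit. The large (60S) subunit was represented by 46 genes and the small (40S) subunit by 31. Another 6 genes, called second copies here, are named after a subunit gene and resemble it to differing degrees: Rpl7l1, Rpl22l1, Rpl36al, Rpl39l, Rps27l and Rps27rt.

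Ribosomal proteins and ribosomal RNA form the machine that reads messenger RNA into protein. The large subunit joins amino acids and the small subunit decodes the message. Their genes are among the most transcribed in dividing cells, and their messages usually begin with a run of pyrimidines (C or T, the 5′ terminal oligopyrimidine or TOP motif) through which mTOR signalling controls their translation. An activated CD8+ T cell enlarges its ribosome pool as it grows and divides. Some subunit genes have near copies, whose proteins can take the same place in the ribosome.

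The samples were splenic CD8+ T cells of gBT-I.CD45.1 transgenic mice, whose T cell receptor recognises the herpes simplex virus peptide gB498-505. Spleen cells were activated with B6 splenocytes carrying that peptide, in the presence of 6 µg LPS, and from day 2 were split each day into medium with 12.5 U/ml human IL-2. Control cultures received PBS and butyrate cultures received 0.5 mM sodium butyrate, a bacterial short-chain fatty acid that also inhibits histone deacetylases, from day 3 to day 5. On day 6, sorted viable CD8+Vα2+ cells went into 4 libraries of 10x 3′ v3.1 single-cell RNA sequencing, all of batch 1. Replicate 1 of each group came from mouse 2 and replicate 2 from mouse 3, so all groups share the transgene, the activation and the 2 mice, and cells are not replicates here. The p-values rest on 2 cultures per group.

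Library totals ranged from 64388093 to 76522004 UMIs, with 2059 and 2632 cells kept in the control libraries and 2560 and 2664 in the butyrate libraries. Any pair of libraries shared between 1 and 6 kept barcodes. The CD8 T cell markers Cd8a, Cd8b1, Cd3d, Cd3e and Trac were present in all libraries, at a summed 2002 and 2030 CPM in control and 1917 and 2149 CPM in butyrate. CPM is a gene's UMI count scaled to a common library total, here after TMM, edgeR's correction for library composition. Marker lists of other cells were low and higher with butyrate: 1.87 and 2.38 against 13.2 and 14.6 CPM for 6 myeloid genes, 0.679 and 1.04 against 5.94 and 6.92 CPM for 5 dendritic cell genes, and 8.37 and 9.95 against 48.0 and 57.5 CPM for 3 NK cell genes. For 4 B cell genes the sums were 6.32 and 5.77 against 8.02 and 8.95 CPM, for 4 erythroid genes 0.165 and 0.312 against 0.963 and 0.734 CPM, and for Cd4 and Foxp3 0.0734 and 0.0595 against 0.590 and 0.718 CPM. Genes passing as higher numbered 2 of 6 myeloid, 4 of 5 dendritic, 2 of 3 NK, 1 of 4 B, 1 of 4 erythroid and 1 of 2 CD4 or regulatory T cell genes. The macrophage genes C1qa and C1qb had 0 UMIs in all 4 libraries, Lyz2 had at most 1 UMI in a library and the NK receptor gene Ncr1 at most 2. The part of these transcripts in the ribosomal protein results was not tested.

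The start regions of the members are shown here because a TOP motif lies at the first transcribed base. RefSeq's promoter table (GRCm38.p6) held 64 of the 84 members. Each line below gives 40 bases before and 10 bases from the annotated start, 5′ to 3′ on the gene's strand. Capitals mark the longest uninterrupted C or T run that reaches to within 5 bases of the start, if it has at least 5 bases. Shorter runs are not marked, and a marked run can end before the start, as in Rps27l and Rpl27. The genes shown are those of 3 of the pairs compared further on, 1 of them moving opposite to the others, and Rpl27 and Rps10, which had large increases.
Rps27: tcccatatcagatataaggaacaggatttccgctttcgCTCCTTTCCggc
Rps27l: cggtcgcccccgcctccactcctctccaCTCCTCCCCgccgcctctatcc
Rpl22: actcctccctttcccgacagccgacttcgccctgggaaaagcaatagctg
Rpl22l1: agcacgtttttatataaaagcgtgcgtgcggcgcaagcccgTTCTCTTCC
Rpl36a: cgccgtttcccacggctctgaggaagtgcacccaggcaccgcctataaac
Rpl36al: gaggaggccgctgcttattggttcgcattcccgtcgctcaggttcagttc
Rpl27: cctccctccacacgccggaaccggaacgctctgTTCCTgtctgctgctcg
Rps10: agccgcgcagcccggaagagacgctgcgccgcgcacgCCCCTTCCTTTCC

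These windows lie at chr3:90213639-90213688 (minus strand) for Rps27, chr9:66946046-66946095 (plus) for Rps27l, chr4:152325686-152325735 (plus) for Rpl22 and chr3:28805468-28805517 (plus) for Rpl22l1. Those of Rpl36a and Rpl36al lie at chrX:134585614-134585663 (plus) and chr12:69184058-69184107 (minus), and those of Rpl27 and Rps10 at chr11:101442205-101442254 (plus) and chr17:27635235-27635284 (minus). The RefSeq start of Rpl22 lay 127 bases from the start of the GENCODE M21 transcript used for it, that of Rpl22l1 72 bases, that of Rpl27 53 bases and that of Rps10 1425 bases away, so the absence of a run in a window says only that these letters are not there. A C or T run of at least 8 bases that reached to within 5 bases of the start was present in 22 of 64 members (34.4%), against 9.72% of all 32851 promoters in the table. In the whole 300-base promoter, on both strands, CCGGAAG (an ETS factor motif) was found in 39.1% of members and 8.86% of all promoters. The Sp1-type motif GGGCGG was in 60.9% and 35.7%. The E-box CACGTG was present in 7.81% of members and 7.15% of all promoters. The TATA box letters TATAAA were present in 9.38% and 13.6%.

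Butyrate cultures held slightly more ribosomal protein message. The 84 genes took 30.4 and 29.6% of the UMIs of kept cells in control replicates 1 and 2, and 31.7 and 31.0% in butyrate. Both butyrate libraries lay above both control libraries, by 1.34 percentage points in mouse 2 and 1.38 in mouse 3. The group means were 30.0 ± 0.559% and 31.4 ± 0.532% (SD, n = 2), a difference of 1.36 percentage points (exact two-sided permutation test, p = 0.333, the smallest that 2 against 2 libraries can give). Kept cells had median mitochondrial UMI shares of 4.89 and 4.91% in control and 3.93 and 4.13% in butyrate. With cells limited to under 5% mitochondrial UMIs the share difference was 0.803 percentage points (exact permutation p = 0.667). A sum over cells does not show which cells carry the difference. Per kept cell, the median share was 30.7 and 29.8% in control and 32.2 and 31.4% in butyrate. The 10th percentile was 26.2 and 25.7% against 28.3 and 27.6%, and the 90th percentile was 37.8 and 36.8% against 36.4 and 35.8%. The low and middle part of the range was thus higher with butyrate and the top lower.

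Gene by gene, 66 of the 84 members rose and 2 fell with butyrate (edgeR quasi-likelihood test, Benjamini-Hochberg adjusted p under 0.05 over 13487 genes). Of all genes tested, 36.0% rose and 35.7% fell. The median member log2 fold change was 0.28, against -0.0079 over all genes. A log2 change of at least 0.5 was reached by 4 members upward and 0 downward, against 21.1% and 18.0% of all genes: the increases were many and small. In 67 members both butyrate libraries lay above both control libraries, as they did in 42.6% of all genes. Scaled by library totals alone, 38 members rose (25.2% of all genes) and 12 fell (49.8%). That scaling moved the median of all genes to -0.21 and the members' median to 0.079. The members lay 0.29 above the median gene with either scaling. A change of scaling shifts all genes by nearly the same amount, so this distance could not differ and is no separate support. Of the 66 members, 15 had a negative fold change when scaled by library totals, and none of these passed as lower.

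**Figure D1:**
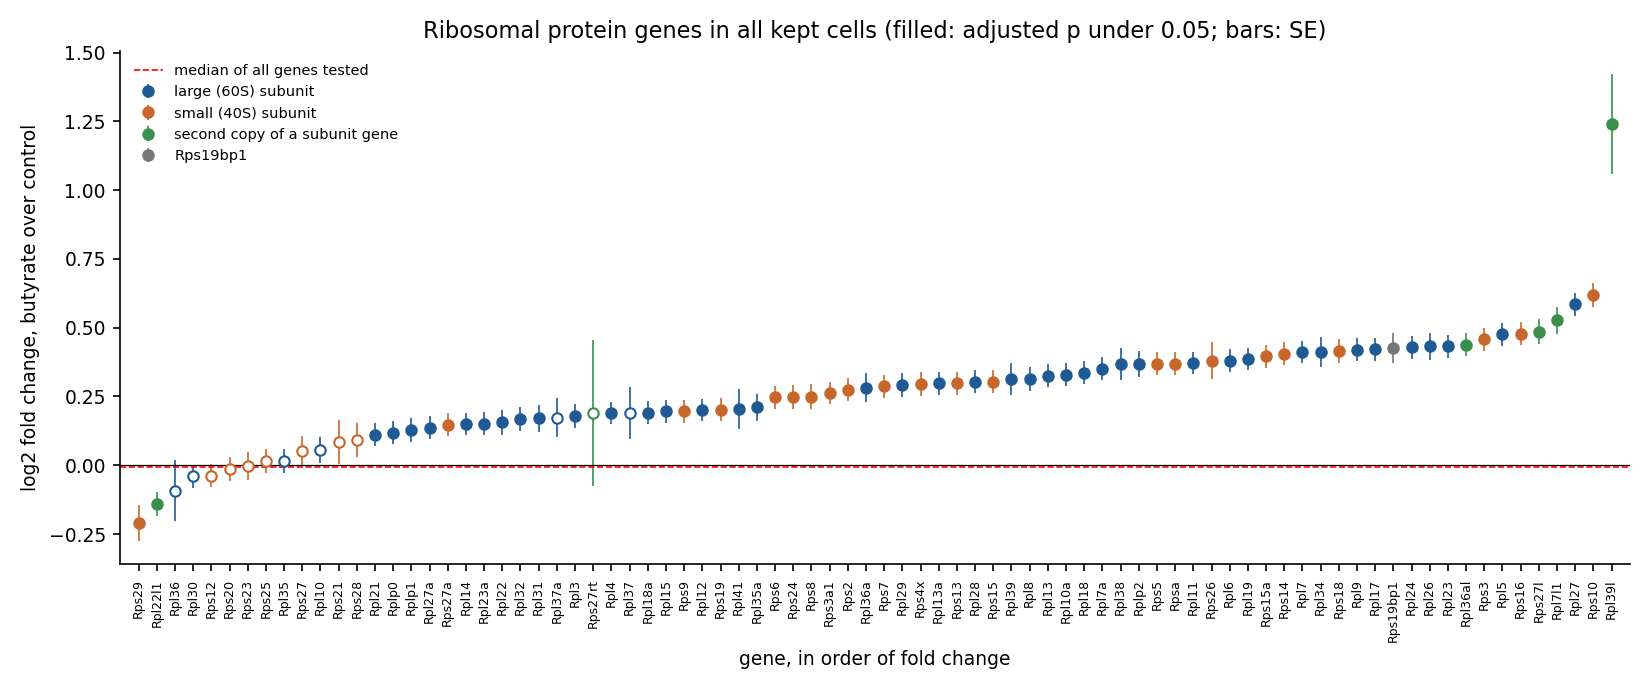
The log2 fold change of CPM, butyrate over control, of each of 82 genes in all kept cells (points; bars are SE of the fit, n = 2 libraries per group), ordered by size and coloured by subunit, with filled points at adjusted p under 0.05. Most points lie between 0 and 0.5, with Rps29 and Rpl22l1 passing below 0 and Rpl39l at 1.24; scaled by library totals alone, 15 of the 66 filled points above 0 turn negative.

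Large-subunit genes rose in 40 of 46 cases, with none passing as lower and a median log2 fold change of 0.29. By library totals alone 21 rose and 3 fell. Rpl27, a large-subunit protein, had 3246 and 3201 CPM in control and 4889 and 4785 CPM in butyrate. Both butyrate values lay above both control values, by 0.59 on the log2 scale (SE 0.042, edgeR adjusted p = 7.26e-09). Rpl5 and Rpl11 form with the 5S ribosomal RNA a particle that, when free, binds the p53 regulator Mdm2. Rpl5 had 1734 and 1771 CPM in control and 2427 and 2452 CPM in butyrate (log2 fold change 0.48, SE 0.042, edgeR adjusted p = 7.26e-08). Rpl11 had 4514 and 4502 against 5876 and 5791 CPM (log2 fold change 0.37, SE 0.041, edgeR adjusted p = 9.84e-07). Neither gene overlapped between groups, and both also rose when scaled by library totals.

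The stalk proteins, which recruit translation factors to the large subunit, differed in size of change. Rplp2 had 2674 and 2494 CPM in control and 3451 and 3220 CPM in butyrate (log2 fold change 0.37, edgeR adjusted p = 7.66e-06). Rplp1 had 5667 and 5431 against 6142 and 5985 CPM (log2 fold change 0.13, edgeR adjusted p = 0.0146), and Rplp0 had 5279 and 5120 against 5625 and 5661 CPM (log2 fold change 0.12, edgeR adjusted p = 0.0191). All 3 passed with TMM, but by library totals alone Rplp1 and Rplp0 had log2 fold changes of -0.072 and -0.081 that did not pass, so their rise depends on the scaling. Rplp0 also missed the threshold without any 1 of the 4 libraries (lowest edgeR adjusted p 0.0561) and in cells thinned to 8000 UMIs (0.181). Rplp1 missed it without control replicate 2 (edgeR adjusted p = 0.173) or butyrate replicate 1 (0.102). With cells under 5% mitochondrial UMIs neither passed (0.173 for Rplp0, 0.0678 for Rplp1).

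Rpl3, which lies near the peptidyl transferase centre, had 3298 and 3248 CPM in control and 3645 and 3767 CPM in butyrate (log2 fold change 0.18, edgeR adjusted p = 0.00139; -0.020 by library totals alone, which did not pass). Rpl10, a late-joining large-subunit protein, had 1437 and 1512 against 1482 and 1586 CPM, overlapping values that did not pass (log2 fold change 0.057, edgeR adjusted p = 0.288; -0.14 by library totals alone, where it passed as lower). Rpl36 had 3213 and 2804 against 3046 and 2598 CPM (log2 fold change -0.092, edgeR adjusted p = 0.506), with the mice further apart than the groups. With the mouse as a block Rpl36 passed as lower (edgeR adjusted p = 0.00765), as it did without butyrate replicate 1 (-0.21, 0.0346).

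Among 31 small-subunit genes 21 rose and 1 fell, with a median log2 fold change of 0.25. By library totals alone 12 rose and 8 fell. Rps10 had the largest increase of this group, with 4132 and 3957 CPM in control and 6293 and 6122 CPM in butyrate (log2 fold change 0.62, SE 0.043, edgeR adjusted p = 5.99e-09). Rps16 had 5521 and 5385 against 7571 and 7627 CPM (log2 fold change 0.48, edgeR adjusted p = 6.41e-08). Rps3, which lies at the messenger RNA entry site, had 3093 and 3033 against 4188 and 4229 CPM (log2 fold change 0.46, edgeR adjusted p = 1.09e-07). In these 3 genes the groups did not overlap and the direction was the same by library totals. Rpsa, which is also known as a laminin receptor, had 6773 and 6593 CPM in control and 8564 and 8707 CPM in butyrate (log2 fold change 0.37, edgeR adjusted p = 1.15e-06).

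Rps29, a small zinc-binding protein of the small subunit, was the largest decrease. It had 2760 and 2615 CPM in control and 2492 and 2157 CPM in butyrate. The groups did not overlap, the log2 fold change was -0.21 (SE 0.066, edgeR adjusted p = 0.0183) and it was -0.41 by library totals alone. The call was lost without control replicate 1 (log2 fold change -0.18, edgeR adjusted p = 0.0952) or without butyrate replicate 2 (-0.11, 0.117).

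Because the pool as a whole moved, each member was also tested with the summed member UMIs as library size. On this scale 21 members gained a larger part of the pool and 19 a smaller part, against 22.0% of all genes above and 53.3% below. With the mouse as a block these counts were 32 and 35, against 23.4% and 55.2% of all genes. With 1 library left out a group holds 1 culture. Counts of such fits are given only in the last section, and no conclusion is drawn from them. The largest gains were those of Rpl39l (log2 fold change 0.97 relative to the pool), Rps10 (0.35, edgeR adjusted p = 3.25e-08), Rpl27 (0.32, 4.48e-07) and Rpl7l1 (0.26, 0.000199). Members that lost included Rps29 (-0.47, 4.35e-11), Rpl22l1 (-0.40, 7.17e-09) and Rpl36 (-0.36, 2.43e-06). Small-subunit genes stood at 6 gains and 10 losses of 31 where large-subunit genes stood at 10 and 8 of 46.

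Reads can be shared among near-identical transcripts. In 62 of 84 members at least 1 stretch of 90 bases in the last 400 bases of the transcript, where 3′ reads fall, also occurred in another annotated gene, often a processed pseudogene, and in 32 members more than 50% of the stretches did. Values of those members are uncertain to that extent, Rpl10, Rpl36a, Rpl27 and Rps10 among them (100%, 100%, 86.5% and 73.3% of stretches shared). Among the 22 members with no shared stretch, 19 rose and 0 fell, with a median log2 fold change of 0.27. Only 1 annotated transcript per gene was searched, and some were long beside their coding part, such as Rps20 (3706 bases, 360 of them coding). Other 3′ ends of these genes were not searched, so the 22 may still share reads. The gene symbols left out for their -ps ending include Rpl9-ps6, at 74.4 and 62.7 CPM in control and 104 and 92.0 CPM in butyrate (log2 fold change 0.52, edgeR adjusted p = 0.0136). Rpl36a-ps1 stood at 38.8 and 33.6 against 49.7 and 46.4 CPM (log2 fold change 0.41, edgeR adjusted p = 0.000193), and Rpl10-ps3 did not pass (0.094, 0.0922).

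The balance within 7 pairs of related genes was compared as a log2 ratio of UMIs within each library, which no scaling can change. No ratio can be called by its exact test, since the smallest p is 0.333 (0.389 adjusted over 7 pairs). In 6 pairs the groups did not overlap. How often this happens for other pairs of genes was not counted. Among all single genes, 42.6% had both butyrate libraries above both control libraries in CPM. That share leaves out genes with both butyrate libraries below, a direction that the 6 pairs include (Rpl22l1 to Rpl22). The coding sequences of 2 pairs are shown as examples. Each line gives the first 60 coding bases, with capitals in the second copy at positions where it differs from the first.
Rps27: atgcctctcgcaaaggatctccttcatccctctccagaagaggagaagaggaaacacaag
Rps27l: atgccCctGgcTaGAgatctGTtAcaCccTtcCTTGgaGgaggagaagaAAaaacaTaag
Rpl36a: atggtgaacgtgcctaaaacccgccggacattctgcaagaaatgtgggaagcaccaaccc
Rpl36al: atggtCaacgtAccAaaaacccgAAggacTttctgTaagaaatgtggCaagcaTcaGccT

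Rps27 and Rps27l differ at 61 of 255 coding bases, and Rpl36a and Rpl36al at 39 of 321. Rpl39l matched Rpl39 at 85.3% of aligned coding positions. Other pairs were further apart, at 66.9% for Rpl22l1 and Rpl22, 54.5% for Rplp2 and Rplp1 and 52.8% for Rpl7l1 and Rpl7. Rps27rt, in contrast, is identical to Rps27 over the coding sequence, so their UMIs cannot be told apart with confidence.

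Rps27l, a p53-responsive second copy of the small-subunit gene Rps27, gained on its parent. Rps27l had 521 and 551 CPM in control and 763 and 737 CPM in butyrate (log2 fold change 0.49, SE 0.045, edgeR adjusted p = 1.42e-07). Rps27 itself had 1523 and 1386 against 1574 and 1440 CPM, overlapping values that did not pass (log2 fold change 0.051, edgeR adjusted p = 0.424; -0.15, passing as lower, by library totals alone). Of the UMIs of the 2 genes together, Rps27l held 25.5 and 28.4% in control and 32.6 and 33.8% in butyrate. The log2 ratio moved from -1.55 and -1.33 to -1.04 and -0.97, a difference of 0.43 (exact permutation p = 0.333).

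Rpl22 and Rpl22l1 moved apart in the opposite sense. Rpl22, a large-subunit protein that binds RNA and is required in T cell development, had 1838 and 1743 CPM in control and 2048 and 1943 CPM in butyrate (log2 fold change 0.16, SE 0.046, edgeR adjusted p = 0.00626; -0.043 and not passing by library totals alone). Its second copy Rpl22l1 had 853 and 807 CPM in control and 756 and 750 CPM in butyrate (log2 fold change -0.14, SE 0.044, edgeR adjusted p = 0.0094; -0.34 by library totals alone). Rpl22l1 held 31.7 and 31.7% of the pair's UMIs in control and 27.0 and 27.8% in butyrate. The log2 ratio was -1.11 in both control libraries and -1.44 and -1.37 in butyrate, a difference of -0.30 beside control and butyrate SDs of 0.0026 and 0.044. The call of Rpl22l1 was lost without control replicate 1 (edgeR adjusted p = 0.0776) or butyrate replicate 2 (0.0554), and that of Rpl22 without control replicate 2 (0.0871) or butyrate replicate 1 (0.0823), and in thinned cells (0.0602).

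Rpl36al, Rpl7l1 and Rpl39l also rose. Rpl36al had 956 and 933 CPM in control and 1299 and 1262 CPM in butyrate (log2 fold change 0.44, edgeR adjusted p = 2.33e-07). Its parent Rpl36a had 1477 and 1333 against 1758 and 1657 CPM (log2 fold change 0.28, edgeR adjusted p = 0.000307; 0.082 and not passing by library totals alone), and the log2 ratio moved from -0.63 and -0.51 to -0.44 and -0.39. Rpl7l1, known for work in ribosome assembly, had 64.3 and 71.1 CPM in control and 97.6 and 97.5 CPM in butyrate (log2 fold change 0.53, edgeR adjusted p = 1.88e-07). Rpl7 had 2388 and 2377 against 3150 and 3190 CPM (log2 fold change 0.41, edgeR adjusted p = 3.31e-07), and the log2 ratio moved by 0.12, by 0.20 in mouse 2 and 0.032 in mouse 3. In cells with a Mki67 or Top2a UMI the groups of this pair overlapped, with differences of 0.26 and -0.00051 in the mice. Rplp2 gained on Rplp1, from 32.1 and 31.5% of their UMIs to 36.0 and 35.0%.

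Rpl39l, best known from male germ cells, was rare. Control libraries held 41 and 70 of its UMIs and butyrate libraries 141 and 135. Summed over libraries it was 2.05 times as frequent per UMI with butyrate (95% exact interval 1.64 to 2.58, which covers counting error only), and its log2 fold change was 1.24 (SE 0.181, edgeR adjusted p = 1.85e-05). In cells thinned to 8000 UMIs it did not pass (log2 fold change 0.50, edgeR adjusted p = 0.158). Its parent Rpl39 had 3725 and 3324 CPM in control and 4556 and 4200 CPM in butyrate (log2 fold change 0.31, edgeR adjusted p = 0.00059; 0.11 and not passing by library totals alone). Rps27rt had 60.4 and 43.5 against 65.4 and 52.7 CPM, with overlapping groups (log2 fold change 0.19, edgeR adjusted p = 0.591; 0.000896 with the mouse as a block).

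**Figure D2:**
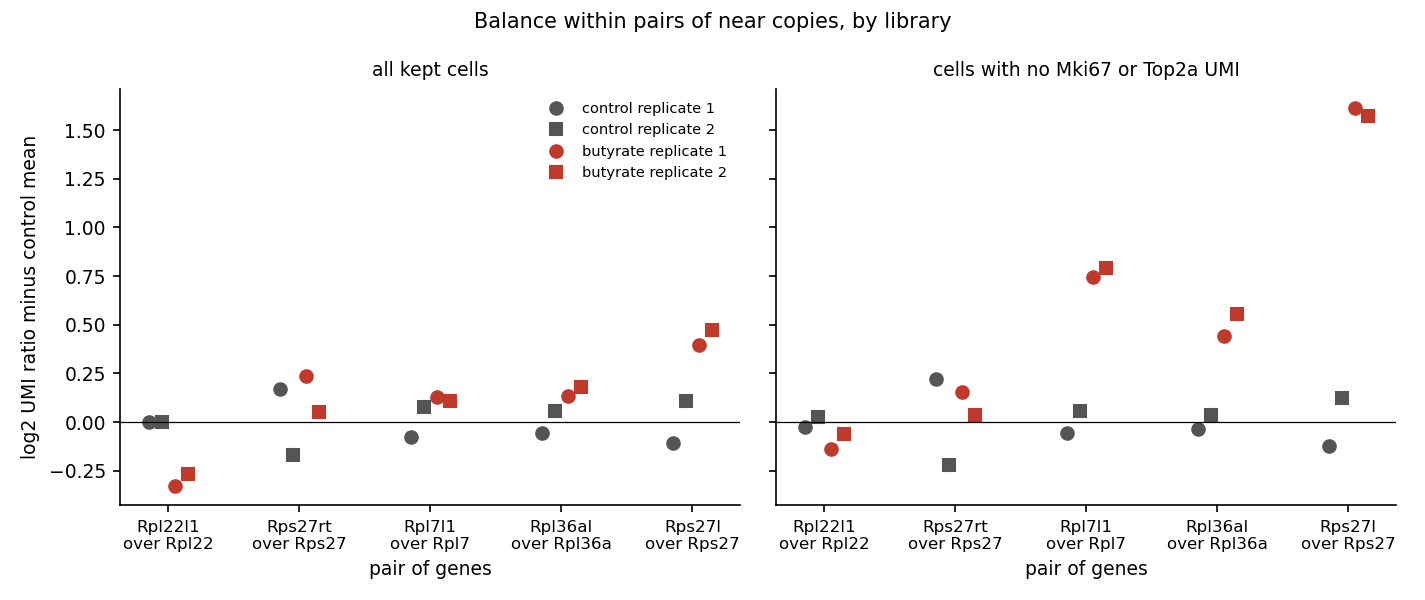
The log2 ratio of UMIs of a second copy over its parent in each library, minus the mean of the 2 control libraries, for 5 pairs in all kept cells (left) and in cells without a Mki67 or Top2a UMI (right). Butyrate points lie below control for Rpl22l1 and above it for Rpl7l1, Rpl36al and Rps27l in both panels, with Rps27l near 1.6 on the right, and they overlap control for Rps27rt.

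The rise of the pool was not seen in all cells. Each kept cell was thinned to 8000 UMIs (71 and 112 control and 54 and 68 butyrate cells were shallower and left out) and cells were split by whether any UMI of the proliferation genes Mki67 or Top2a remained. This split gives ranges of cell cycle activity, not cell types, and Mki67 itself fell with butyrate (log2 fold change -0.37, edgeR adjusted p = 1.37e-05). Cells without such a UMI numbered 290 and 362 in control and 364 and 419 in butyrate, or 14.6, 14.4, 14.5 and 16.1% of thinned cells. Their ribosomal protein share was 36.9 and 36.1% in control and 34.4 and 33.3% in butyrate. In cells with such a UMI it was 30.2 and 29.4% in control and 31.9 and 31.2% in butyrate. The groups did not overlap in either class, and the direction was opposite: -2.69 percentage points without, and 1.76 with, a Mki67 or Top2a UMI (exact permutation p = 0.333 for each).

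In control cells the share fell steadily as Mki67 and Top2a UMIs increased, from 36.9 and 36.1% at 0, through 32.3 and 31.0% at 1 to 3 and 30.5 and 29.3% at 4 to 9, to 29.4 and 28.9% at 10 or more. In butyrate cells the same steps gave 34.4 and 33.3%, 33.0 and 32.5%, 32.0 and 31.2%, and 31.3 and 30.6%. The gap between cells with and without a Mki67 or Top2a UMI was -6.69 and -6.71 percentage points in the control libraries, against -2.47 and -2.04 in those with butyrate (exact permutation test of the gap, p = 0.333).

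**Figure D3:**
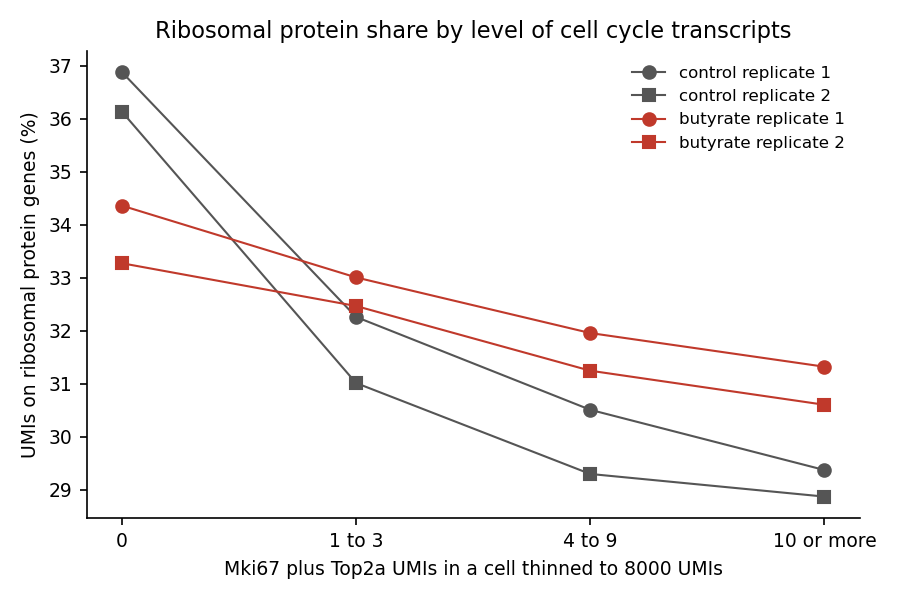
The percent of UMIs on the 84 genes (y axis) in cells thinned to 8000 UMIs, by the number of Mki67 plus Top2a UMIs left in the cell (x axis), 1 line per library. Control lines start at 36.9 and 36.1% and end at 29.4 and 28.9%; butyrate lines start at 34.4 and 33.3%, cross them and end at 31.3 and 30.6%.

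Other measures moved with the group in cells without a Mki67 or Top2a UMI. Before thinning, the median control cell of this class held 13568.5 (replicate 1) or 12665.5 UMIs (replicate 2), and the median butyrate cell 20345 or 19506. Within cells of under 15000 UMIs the share was 38.4 and 38.0% in control and 35.3 and 34.7% in butyrate, whereas at 15000 UMIs or more it was 34.5 and 33.0% against 34.0 and 32.6%, and the groups overlapped. At least 1 UMI of Tcf7, a transcription factor of naive and memory T cells, was found in 106 of 290 and 122 of 362 control cells but in 24 of 364 and 32 of 419 butyrate cells of this class. Among those without Tcf7 the control shares were 35.7 and 34.9% against butyrate shares of 34.0 and 33.0%, and among those with Tcf7 38.9 and 38.6% against 38.8 and 36.7%, where the groups overlapped. Cells with a Mki67 or Top2a UMI gave 31.3 and 30.6% against 33.0 and 32.6% under 15000 UMIs, and 29.9 and 29.1% against 31.7 and 30.9% above. What part depth or Tcf7 has in the lower share was not tested further.

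Of 83 members tested in cells without a Mki67 or Top2a UMI, 25 rose and 26 fell, against 23.9% and 23.2% of all genes, with a median log2 fold change of 0.00045. By library totals alone 11 rose and 36 fell, against 19.8% and 28.0%, and the median was -0.10. In cells with such a UMI 65 rose and 2 fell, against 31.4% and 30.5%, with a median of 0.28. By library totals alone these counts were 39 and 13, against 21.3% and 45.5%. In cells with no UMI of the 6 cycle genes Mki67, Top2a, Cdk1, Ccnb1, Pcna and Rrm2, a class added after seeing the data, 12 members rose and 29 fell, against 17.8% and 16.5%. With TMM, 13 members fell in cells without a Mki67 or Top2a UMI and rose in cells with one, 24 rose in both, and Rps29 and Rpl22l1 fell in both. How often all genes did so was not counted, so these joint counts do not set the members apart. Across the 83 members the fold changes of both classes correlated (Pearson 0.66, Spearman 0.73), where the classes come from the same libraries.

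The difference between the classes was tested directly in edgeR, with the library as a block, a comparison added after the shares had been seen. The butyrate effect was higher in cells with a Mki67 or Top2a UMI for 75 of 84 members and lower for 4, against 12.0% and 8.68% of 11421 genes, with a median difference of 0.33 on the log2 scale. By library totals alone 61 were higher and 8 lower, against 7.13% and 14.3% of all genes. Fits of this difference with 1 library left out leave 1 culture in a group. Their counts are given only in the last section, and no conclusion is drawn from them. Rpl31, Rps25, Rps15, Rpl23a and Rpl7l1 did not pass, and the members with a lower effect, named after their values were seen, included Rps27l, Rps19bp1 and the rare Rpl39l.

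After Rps27rt (0.67), Rps27 had the highest difference. In CPM by library totals, its level in cells without a Mki67 or Top2a UMI was 2552 and 2351 in control and 1660 and 1559 in butyrate (log2 fold change with TMM -0.50, edgeR adjusted p = 9.65e-12). In cells with such a UMI it was 1638 and 1478 against 1474 and 1364 CPM, and with TMM the fold change was 0.064 (edgeR adjusted p = 0.317). Rps27l went the other way: 320 and 350 CPM in control and 694 and 633 in butyrate without (log2 fold change 1.09, edgeR adjusted p = 4.46e-24), and 506 and 546 against 632 and 627 CPM with such a UMI (log2 fold change 0.46, edgeR adjusted p = 3.31e-09). The difference of effect was 0.62 for Rps27 and -0.58 for Rps27l (edgeR adjusted p = 2.4e-58 and 3.12e-22). With 2 cultures per group these p-values lean on variation pooled over genes. Their size is therefore no measure of the spread between cultures. In cells without a Mki67 or Top2a UMI Rps27l held 11.1 and 13.0% of the pair's UMIs in control and 29.5 and 28.9% in butyrate, a log2 ratio difference of 1.59. With no UMI of the 6 cycle genes it held 7.38 and 8.66% against 26.7 and 24.2%, a difference of 1.97.

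Other second copies also gained in this class: the Rpl7l1 to Rpl7 log2 ratio rose from -6.10 and -5.99 to -5.30 and -5.25, and that of Rpl36al to Rpl36a from -1.01 and -0.94 to -0.53 and -0.42. Rpl22l1 to Rpl22 went from -1.29 and -1.24 to -1.41 and -1.33, the same direction as in all cells and a smaller step. The groups of that pair overlapped in cells with no UMI of the 6 cycle genes, with a difference of -0.026 and opposite signs in the mice (0.048 and -0.10). Rpl39l was at 2 and 0 UMIs here without butyrate and at 9 and 13 with it, a ratio of 9.16 per UMI (95% exact interval 2.25 to 80.4, counting error only). In cells with a Mki67 or Top2a UMI it had 12 and 31 against 21 and 20 UMIs, with overlapping groups.

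**Figure D4:**
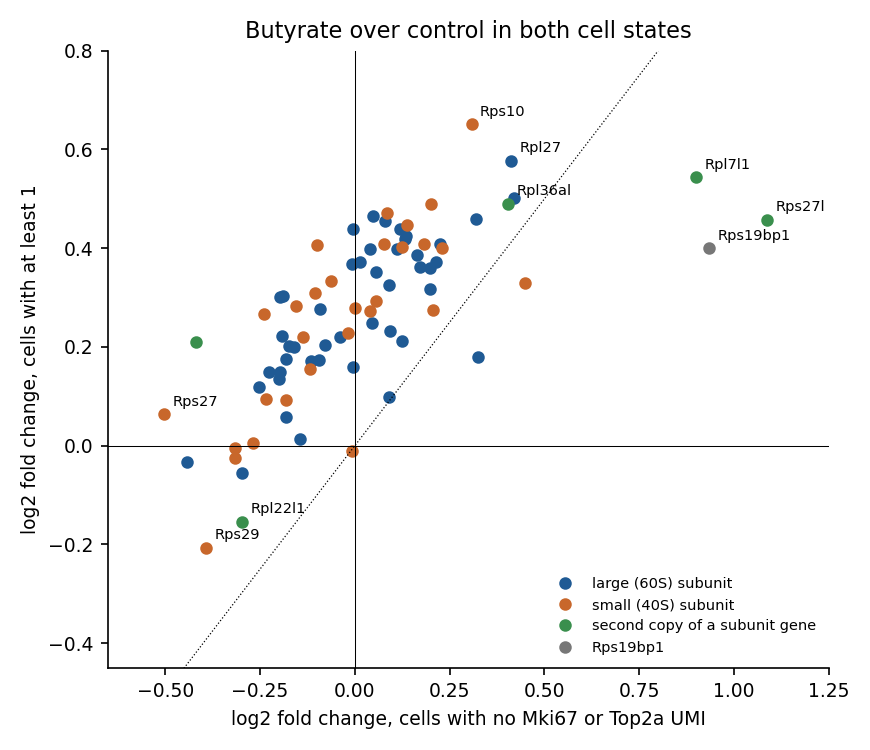
The log2 fold change with TMM, butyrate over control, in cells without (x axis) and with (y axis) a Mki67 or Top2a UMI, 1 point for each of 81 genes, coloured by subunit; the dotted line marks equal change. Most points lie above the line, while Rps27l, Rpl7l1, Rps19bp1, Rps15, Rpl31 and Rps25 lie on or below it; scaled by library totals alone the medians move to -0.10 (x) and 0.079 (y).

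Genes that work beside the ribosome were counted in the same way, beside 36.0% of all genes higher and 35.7% lower with TMM, and 25.2% and 49.8% by library totals alone. Of 16 other translation genes, most with TOP messages, 10 rose and 2 fell, with a median log2 fold change of 0.26 (5 and 4 by library totals alone). Tpt1, a translationally controlled TOP gene, had 4528 and 4609 CPM in control and 6904 and 7332 CPM in butyrate (log2 fold change 0.64, edgeR adjusted p = 5.25e-09). Rack1, a scaffold bound to the small subunit, had 2436 and 2476 against 3502 and 3451 CPM (log2 fold change 0.50, edgeR adjusted p = 4.05e-08). Of 14 subunits of the initiation factor eIF3, 9 rose and 1 fell (median 0.23; 6 and 5 by library totals alone), the smallest p being those of Eif3k (log2 fold change 0.70, edgeR adjusted p = 1.12e-09) and Eif3i (0.60, 5.99e-09). Among 7 genes of ribosomal protein chaperones and assembly, only Rpf2 passed in all kept cells (0.21, edgeR adjusted p = 0.00141; 0.0092 and not passing by library totals alone), and Bccip (0.10, 0.0553) did not. In cells without a Mki67 or Top2a UMI 5 of these 7 rose and 0 fell, beside 23.9% and 23.2% of all genes, with a median of 0.66 (0.56 by library totals alone).

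Of 24 tested genes among 26 of the mTOR pathway and S6 kinases, 6 rose and 11 fell, beside 36.0% and 35.7% of all genes. Their median log2 fold change was -0.073. By library totals alone 4 rose and 16 fell, beside 25.2% and 49.8% of all genes. Eif4ebp1, the repressor of cap-dependent translation that mTOR inactivates, had 147 and 146 CPM in control and 61.8 and 64.7 CPM in butyrate (log2 fold change -1.21, edgeR adjusted p = 4.37e-12). Sesn1, a sestrin that restrains mTOR, had 17.8 and 18.8 against 7.02 and 7.53 CPM (log2 fold change -1.34, edgeR adjusted p = 2.03e-10). The 78 mitochondrial ribosomal protein genes belong to the separate ribosome of mitochondria. They had 53 higher and 6 lower and a median of 0.25 (33 and 23 by library totals alone), beside the same shares of all genes. The smallest p were those of Mrps12 (log2 fold change 0.83, edgeR adjusted p = 1.59e-10) and Mrpl10 (0.74, 2.25e-09). In cells without a Mki67 or Top2a UMI 49 of them rose and 6 fell (23.9% and 23.2% of all genes), with a median of 0.38. The difference between the classes was higher for 7 and lower for 13 of 78 (12.0% and 8.68% of all genes), with a median of -0.13.

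Barcodes that hold no cell show what free RNA contributes. In barcodes of under 100 UMIs, the members' share was 34.5 and 33.8% in control and 34.3 and 32.2% in butyrate, above that of kept cells. In the class from 100 to under 1000 UMIs it was 35.9 and 30.6% in control and 30.0 and 30.0% in butyrate, where control replicate 1 had 32307 barcodes and the other libraries 3838 to 7787. In barcodes of under 100 UMIs 15 of 84 members rose, 2 fell and 67 did not pass. Of 9922 genes 18.3% rose and 16.8% fell there, so rises were about as frequent among members as among all genes. The 2 were Rps29 (log2 fold change -0.29) and Rpl22l1 (-0.26), and Rps27l (0.54), Rpl27 (0.45), Rps10 (0.39) and Rpl5 (0.39) were among the 15. These 6 had the same direction in kept cells, which says nothing of the 67 members that did not pass. The part of free RNA in the results for kept cells was not tested.

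The mice differed as well. In 53 of 84 members replicate 1 exceeded replicate 2 in both groups, as it did in 24.8% of all genes tested. Over the 13 members with a transcript of under 500 bases the median log2 CPM ratio of replicate 1 to replicate 2, averaged over groups, was 0.13 (range -0.016 to 0.39), and over the 71 others it was 0.026 (range -0.21 to 0.20). The ratio correlated with log2 transcript length across members (Pearson -0.48, Spearman -0.53), where all points share the same 4 libraries. Lengths are those of 1 annotated transcript per gene, which need not be the main one in these cells. The butyrate fold change correlated less with length (Pearson 0.14, Spearman 0.16), and its median was 0.13 for the 13 short transcripts and 0.30 for the others.

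**Figure D5:**
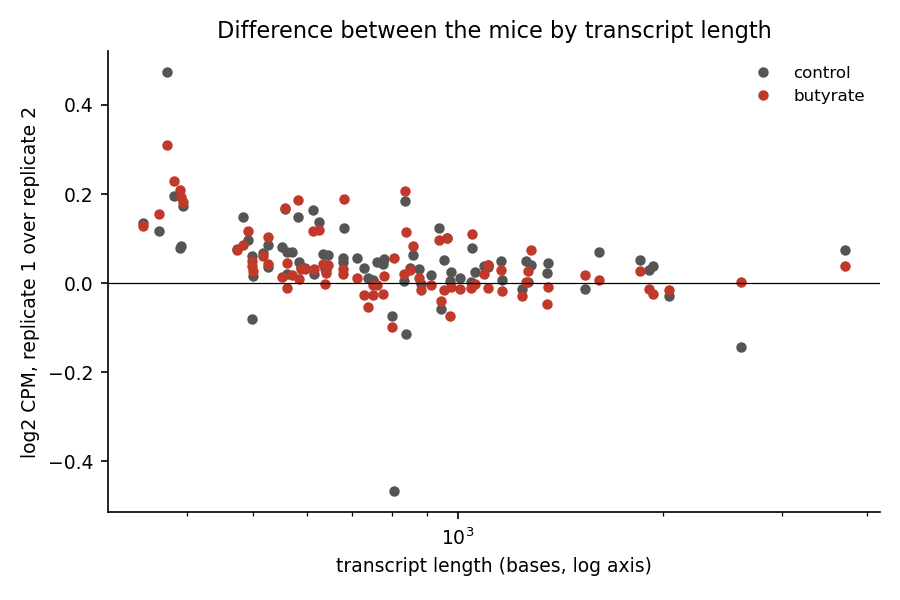
The log2 ratio of CPM in replicate 1 (mouse 2) over replicate 2 (mouse 3) against transcript length on a log axis, for each of 82 genes in control (grey) and butyrate (red). The short transcripts lie mostly above 0 in both groups and the longer ones scatter around 0.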

How the data were processed

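Single-cell RNA of 4 cultures was analysed, with 2 per group. The authors deposited raw counts of UMIs, by gene and barcode, for all barcodes. Cell Ranger 4, Seurat 4.3 and mm10 were used, per the submitters' processing notes. Not given in the sources used here were the annotation release and the handling of intronic reads. Cells were barcodes with at least 10% of the 99th percentile of UMIs of the top 3000 barcodes, at least 500 genes and under 10% mitochondrial UMIs. No doublet caller was run; an alternative leaves out the top 2% of cells by UMIs. UMIs were summed per library and fitted over all genes with edgeR 4.0.16 in R 4.3.3 by the robust quasi-likelihood test, with TMM and filterByExpr and only the group in the model. The SE is the absolute log2 fold change over the square root of F. DESeq2 1.42.0, other scalings, filters, cell classes and left-out libraries were alternatives. The main fit was tried on simulated counts with 200 changed genes and the same variation between cultures for every gene. It found 24% of genes with a log2 change of 0.25 and 90% of those with 0.5. Far more genes passed in the real data, so the setting is simpler than the data. A member that did not pass may therefore still differ by a small amount. With 2 cultures per group, p-values lean on variation pooled over genes.

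Replicate numbers pair libraries of the same mouse, per the library names in the labels. Deviations from the group means correlated weakly between same-numbered libraries over all genes (Pearson 0.13, Spearman 0.063 over 13487 genes). Among the 84 members the log2 ratios of replicate 1 to replicate 2 correlated more strongly between control and butyrate (Pearson 0.58, Spearman 0.69). The main model leaves this pairing out. With the mouse as a block 71 members rose and 3 fell, beside 4958 and 4931 of 13487 genes.

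Transcript lengths and shared 90-base stretches came from GENCODE M21 (GRCm38), which matched all 84 members, with 1 transcript chosen per gene from the annotation alone. Log2 ratios within pairs used a pseudocount of 0.5 UMIs. Named members were both genes of each pair, the 8 largest increases and decreases that passed without overlap, the 4 largest and smallest relative to the pool, Rplp0, Rplp1, Rplp2, Rpsa, Rpl5 and Rpl11, and the 2 smallest p of each other list. For 2 members no single-gene result is reported here. Members and lists were chosen with earlier results of these data known.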

Additional observations from a re-analysis of the deposited data

Results flagged for a closer look

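The difference between butyrate and control was not the same in cells without and cells with a Mki67 or Top2a UMI. The share of UMIs on ribosomal protein genes differed by -2.69 percentage points in the first class and by 1.76 in the second, opposite in both mice. The first class also differed between groups in depth and in Tcf7. In its cells of 15000 UMIs or more the share difference was -0.44 percentage points, with overlapping groups. The part of such a change in which cells fill the class was not tested, and the single-gene differences were not split by depth or Tcf7. For single genes the difference between the classes passed the edgeR test with library as a block, and it is given here as the log2 fold change with such a UMI minus that without. It was 0.67 for Rps27rt, 0.62 for Rps27, 0.55 for Rpl39, 0.44 for Rps3, 0.43 for Rplp0, 0.42 for Rpl36a, 0.41 for Rpl3, 0.40 for Rpl22 and 0.40 for Rps10. It was 0.34 for each of Rpl7, Rpl11, Rps16 and Rplp1, 0.33 for Rpsa, 0.30 for Rpl36, 0.29 for Rpl10, 0.24 for Rplp2, 0.24 for Rps29, 0.22 for Rpl27, 0.20 for Rpl22l1, 0.14 for Rpl5 and 0.14 for Rpl36al. Below 0 were Rps19bp1 at -0.49, Rps27l at -0.58 and Rpl39l at -3.22. The last rests on 2 and 0 UMIs in control cells without a Mki67 or Top2a UMI, so its size depends on the prior count of the fit.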

How the results depend on the processing

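Scaled by library totals alone, 38 members rose and 12 fell, with a median of 0.079. In cells with no Mki67 or Top2a UMI these values were 25, 26 and 0.00045, and with library totals as well 11, 36 and -0.10. In cells with no UMI of 6 cycle genes (Mki67, Top2a, Cdk1, Ccnb1, Pcna and Rrm2), an alternative chosen after seeing the data, as were the class with a Mki67 or Top2a UMI and the pairing of either class with library totals, they were 12, 29 and -0.053 (17.8% and 16.5% of all genes rose and fell there), and in cells with a Mki67 or Top2a UMI and library totals 39, 13 and 0.079. The median was 0.23 with a mitochondrial limit of 5% and 0.23 in cells thinned to 8000 UMIs. The share difference was -2.69 percentage points in cells with no Mki67 or Top2a UMI and -3.31 in cells with no UMI of 6 cycle genes. Fits with 1 library left out have 1 culture in a group. Their counts, which follow without shares of all genes, are listed for completeness and no conclusion is drawn from them. With 1 library left out, 57 to 68 members rose and 0 to 3 fell, the median was 0.24 to 0.29, the share difference 0.964 to 1.75 percentage points, members above the pool 12 to 22 and below it 13 to 19, and members with a higher effect in cells with a Mki67 or Top2a UMI 74 and a lower one 3 to 4. With the replicate block 32 members gained and 35 lost relative to the pool; beyond the calls of Rpl36 and Rps27rt given with them, the block changed no other named call. Members with a lower effect in cells with a Mki67 or Top2a UMI numbered 8 by library totals (14.3% of all genes). Against cells with no UMI of 6 cycle genes they numbered 2 (580 of 11339 genes). Signs turned by library totals alone for Rps27 (-0.15), Rpl22 (-0.043), Rplp0 (-0.081), Rplp1 (-0.072), Rps27rt (-0.0091), Rpl3 (-0.020) and Rpl10 (-0.14). In cells with no Mki67 or Top2a UMI they turned for Rps27 (-0.50), Rpl22 (-0.20), Rplp0 (-0.25), Rplp1 (-0.12), Rps27rt (-0.42), Rpl3 (-0.16), Rpl39 (-0.19), Rpl10 (-0.18) and Rpl36a (-0.093). In cells with no UMI of 6 cycle genes these were, in that order, -0.57, -0.30, -0.35, -0.15, -0.62, -0.19, -0.27, -0.18 and -0.16. In thinned cells Rps27 stood at -0.029, and with 1 library left out between -0.019 (without control replicate 2) and 0.12, also below 0 without butyrate replicate 1 (-0.015). Rps27rt stood between -0.036 (without control replicate 2) and 0.43 with 1 library left out, Rpl36 between -0.21 and 0.020 (above 0 without control replicate 1, at 0.00021, and without butyrate replicate 2), and Rpl39l at -0.024 in cells with a Mki67 or Top2a UMI, where its log2 ratio to Rpl39 was -0.20. The log2 ratio of Rps27rt to Rps27 was -0.031 in cells with no UMI of 6 cycle genes and, with 1 library left out, between -0.024 (without control replicate 2) and 0.31. All values in this comparison of signs are butyrate over control on the log2 scale, and the cause was not tested. DESeq2, TMM from other genes, no low-count filter, no cell filter beyond 6500 UMIs and leaving out the top 2% of cells kept the direction and call of all 26 named members they tested.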
